A study of Mus musculus with 6 samples.

Results

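Natural killer (NK) cells read the surface of other cells through activating and inhibitory receptors, and the genes followed here encode 7 of the ligands for those receptors, out of 34187 genes in the count matrices. They were taken as a list of names: Ulbp1, Raet1e, Pvr, Nectin2, Clec2d, Cd48 and H2-T23. All 7 were present in the matrices and are accounted for in each cell class below. The list was made without a threshold on measured values, but with earlier results of these data known.

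The cells came from subcutaneous 6694c2vTRP1 pancreatic ductal adenocarcinoma tumors in mice, from which CD45+ cells were isolated with beads. One group received PBS, one received mono-IL10 (monomeric IL-10) at 26 µg per mouse and one received IL10/2-Trikine, mono-IL10 linked to a mutated IL-2 that binds the receptor chain IL-2Rβ but not the common gamma chain, at 30.6 µg per mouse. Injections were given every other day from day 8 for 2 doses, and tumors were taken on day 14. The labels give 5 mice for each treated group and no number for PBS. Cells carried hashtag antibodies, 5 hashtags were found in each library and each was taken as 1 mouse. The cells of a group were pooled into 1 library for 5' single-cell RNA sequencing, so that treatment and library cannot be told apart. The mouse was the replicate throughout, and the PBS mice served as controls for both treatments.

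NKG2D, an activating receptor of NK cells and of many CD8+ T cells, binds stress-induced relatives of MHC class I, among them ULBP1 and the RAE-1 proteins. DNAM-1 (activating) competes with TIGIT and CD96 for PVR (CD155) and also binds Nectin-2 (CD112). The other 3 members include ligands of inhibitory receptors: Clr-b, encoded by Clec2d, engages NKR-P1B, and the nonclassical MHC class I molecule Qa-1, encoded by H2-T23, presents peptide to the CD94/NKG2A receptor, while CD48 binds 2B4 and CD2 on neighboring leukocytes.

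The upstream sequences of Clec2d, H2-T23 and Ulbp1 are shown because Ulbp1 and Clec2d carry the largest changes of the members in macrophage-like cells under mono-IL10 below, and because H2-T23 shares a motif with Clec2d that Ulbp1 lacks. Each line spans 250 bases before to 50 after the gene's start in RefSeq's promoter table (assembly GRCm38.p6, not the GRCm39 build used for counting), written 5' to 3' on the gene's strand. Clec2d lies at chr6:129180365-129180664 on the plus strand, H2-T23 at chr17:36032652-36032951 on the minus strand and Ulbp1 at chr10:7473428-7473727 on the minus strand. Capitals mark matches on either strand to the core of the interferon-stimulated response element (GAAA, any 2 bases, GAAA) or to the CCAAT box (CCAAT).
Clec2d: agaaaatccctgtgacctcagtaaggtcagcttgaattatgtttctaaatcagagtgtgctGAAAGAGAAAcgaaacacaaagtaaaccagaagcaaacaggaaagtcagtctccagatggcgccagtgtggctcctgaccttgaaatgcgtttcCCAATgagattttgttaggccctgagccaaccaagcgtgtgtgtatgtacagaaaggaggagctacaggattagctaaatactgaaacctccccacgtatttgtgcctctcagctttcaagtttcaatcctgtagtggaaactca
H2-T23: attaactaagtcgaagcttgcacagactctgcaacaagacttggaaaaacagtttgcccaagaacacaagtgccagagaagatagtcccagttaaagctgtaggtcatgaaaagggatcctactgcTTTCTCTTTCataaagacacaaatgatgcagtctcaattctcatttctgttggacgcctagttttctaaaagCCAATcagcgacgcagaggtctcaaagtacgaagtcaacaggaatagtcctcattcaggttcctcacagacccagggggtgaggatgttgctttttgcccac
Ulbp1: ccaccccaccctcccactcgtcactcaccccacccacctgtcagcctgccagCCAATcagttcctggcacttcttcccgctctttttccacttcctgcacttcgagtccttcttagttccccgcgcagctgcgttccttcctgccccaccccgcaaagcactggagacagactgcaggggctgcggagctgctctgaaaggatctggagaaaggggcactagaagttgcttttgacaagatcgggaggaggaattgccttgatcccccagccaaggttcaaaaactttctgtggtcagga
Clec2d and H2-T23 each held 1 match to the response element core, at -189 and -124 from the start, and 3.44% of 32851 promoters in the table hold one. A CCAAT box was present in all 3 windows, at -95 in Clec2d, -52 in H2-T23 and -198 in Ulbp1, against 37.4% of all promoters. None of the 3 windows held a gamma-activated site (TTCNNNGAA, in 8.30% of promoters) or an AP-1 site (TGANTCA, in 7.81%). Of the 7 members, 6 had a promoter in the table. Among those not shown, the Cd48, Nectin2 and Raet1e windows held 0 response element cores. Cd48, Nectin2 and the Raet1e window at chr10:22158319 held 0 CCAAT boxes, and the Raet1e window at chr10:22173247 held 1. H2-T23 was shown because of its match, so setting that match beside the share of all promoters is no test.

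The cells were compared in 5 classes: tumor epithelial-like cells, fibroblast-like cells, macrophage or monocyte-like cells, T cells and NK cells. The first 3 were named here from marker genes, and the T and NK cells were those of the authors' annotation. The numbers of cells with a mouse of origin, in the order PBS, mono-IL10 and IL10/2-Trikine, were 6122, 5122 and 12174 tumor epithelial-like cells, 403, 301 and 500 fibroblast-like cells and 6917, 5522 and 4611 macrophage-like cells. T cells numbered 249, 446 and 181, and NK cells 99, 180 and 219, with 4 rather than 5 mono-IL10 mice for NK cells. The unique molecular identifiers (UMIs, 1 per captured transcript) summed per mouse and class ran from 33913 in NK cells to 69306638 in tumor cells. Tumor epithelial-like cells were in the preparation despite the CD45+ isolation, with Ptprc, which encodes CD45, at 11 to 88.2 CPM (UMIs per 1e6 UMIs of the mouse and class) against 686 to 836 CPM in macrophage-like cells. Any 2 libraries shared 408 to 700 cell barcodes.

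The members differed in where they were expressed (the plot of levels by class). Of the 5 classes, Raet1e was highest by group mean in tumor epithelial-like cells and Nectin2 in tumor epithelial-like and fibroblast-like cells. In PBS mice Raet1e, a RAE-1 family gene, measured 23.4 ± 1.35 CPM (SD, n = 5 mice) there and 9.14 CPM in T cells, 7.41 ± 0.698 CPM in macrophage-like cells, 1.55 CPM in NK cells and 1.22 CPM in fibroblast-like cells. The tumor values did not overlap those of T cells, next in order, whose mean rests on 8 UMIs. Under mono-IL10 the classes did overlap, at 20.6 to 25.2 CPM in tumor epithelial-like cells and 4.90 to 28.1 CPM in T cells (26 UMIs). The RAE-1 genes are near-identical copies of one another, so counts of Raet1e can be split or lost between them. Nectin2 measured 37.6 ± 3.63 CPM in tumor epithelial-like cells and 28.0 ± 4.63 CPM in fibroblast-like cells, whose values overlapped, and 3.86 ± 0.273 CPM in macrophage-like cells, which overlapped neither. In lymphocytes 1 Nectin2 UMI was counted in 876 T cells of all groups, and 0 of 498 NK cells had one, which allows a share of up to 0.602% of cells with a UMI and sets no limit on the share expressing the gene.

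Pvr was shared by the 3 non-lymphoid classes. Its PBS mean was 64.7 ± 4.08 CPM in tumor epithelial-like cells, 64.3 ± 2.19 CPM in macrophage-like cells and 59.7 ± 10.0 CPM in fibroblast-like cells, which could not be ordered beyond their spread. T cells, at 22.4 CPM (22 UMIs), and NK cells, at 10.9 CPM (3 UMIs), did not overlap them. For Clec2d only tumor epithelial-like cells stood apart in PBS mice, at 35.4 ± 2.45 CPM, below all macrophage values. The other PBS means were 123 ± 33.3 CPM in T cells, 100 ± 24.2 CPM in NK cells, 97.8 ± 12 CPM in fibroblast-like cells and 76.4 ± 9.20 CPM in macrophage-like cells, each overlapping the next. H2-T23 fell in the order T cells (300 ± 42.4 CPM), NK cells (197 ± 72.7), macrophage-like cells (171 ± 36.3), tumor epithelial-like cells (104 ± 15) and fibroblast-like cells (95.9 ± 18.0), and only the step from macrophage-like to tumor epithelial-like cells showed no overlap.

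Cd48 was a gene of leukocytes, at 129 ± 19.8 CPM in T cells, 93.0 ± 8.10 CPM in macrophage-like cells and 57.9 ± 59.8 CPM in NK cells of PBS mice. Fibroblast-like and tumor epithelial-like cells had 3.05 and 2.99 CPM, and 6.37% of the tumor cells of PBS mice had a Cd48 UMI, or 0.520% once each cell was thinned to 1500 UMIs. Ulbp1 in PBS mice was 18.5 to 49.6 CPM in T cells, above all macrophage-like (10.3 to 15.4) and tumor epithelial-like values (8.87 to 10.9). Fibroblast-like values, from 12.4 CPM, also lay above all tumor epithelial-like values. No class stood apart from the next in order for Ulbp1 in PBS mice. Its PBS means were 29.4 ± 12.1 CPM in T cells, 28.8 CPM in NK cells (8 UMIs), 16.7 CPM in fibroblast-like cells, 12.9 ± 1.84 CPM in macrophage-like cells and 9.67 ± 0.940 CPM in tumor epithelial-like cells, and each class overlapped the next.

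**Figure D1:**
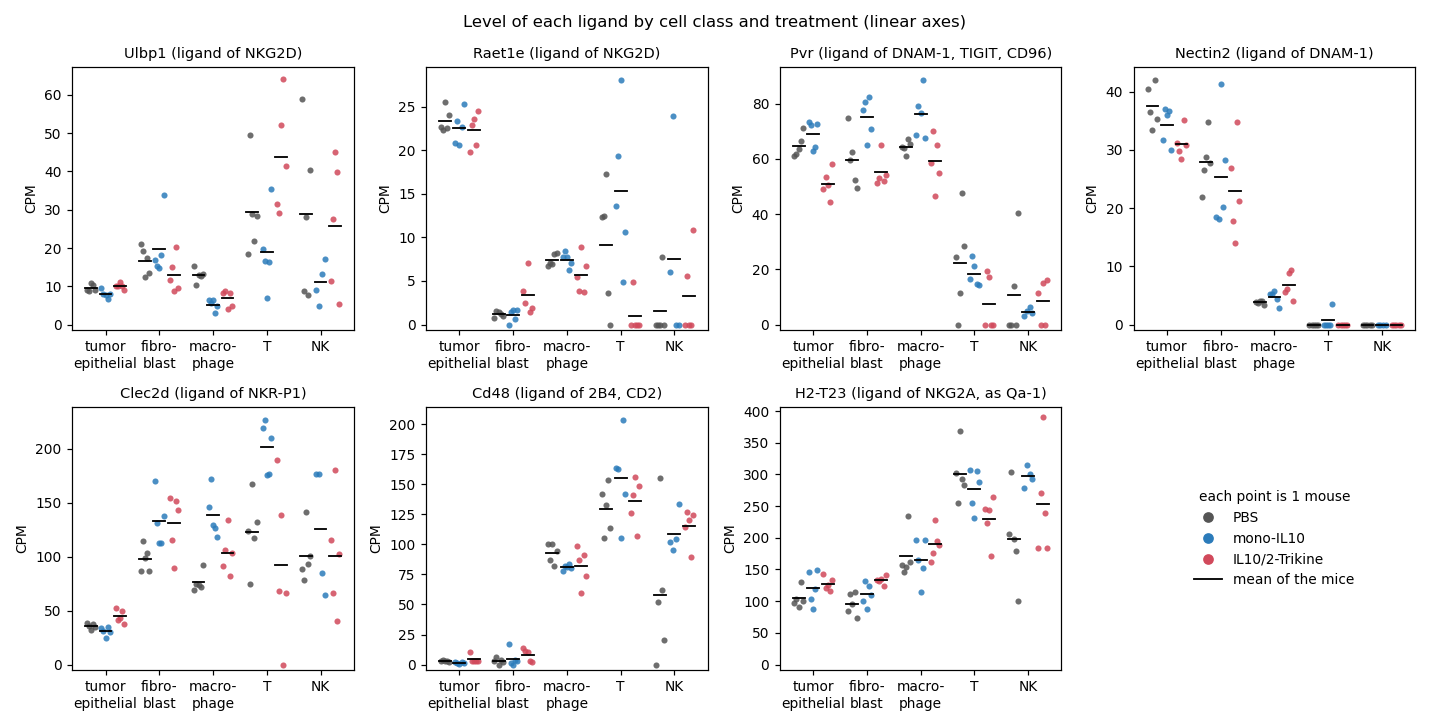
Level of each of the 7 genes in CPM (linear axes, 1 panel per gene) in 5 cell classes, with 1 point per mouse colored by treatment and a line at the mean of each group's mice. Raet1e has its highest group means in tumor epithelial-like cells. Cd48 sits near 0 outside the 3 leukocyte classes, Nectin2 near 0 in T and NK cells, and Clec2d of PBS mice lowest in tumor epithelial-like cells.

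Treatment effects were tested with edgeR's quasi-likelihood test on UMIs summed per mouse, 1 fit per class, and a gene was called where its p-value, adjusted over all genes of that class by the Benjamini-Hochberg method, was under 0.05. Fold changes below are on the log2 scale after TMM scaling, which sets the bulk of genes to no change, while levels are CPM of library totals. Leaving TMM out shifted the median of all genes by -0.12 in tumor cells for mono-IL10 against PBS, and by 0.10 to 0.12 in tumor, fibroblast-like and macrophage-like cells for IL10/2-Trikine against mono-IL10. Exact two-sided permutation tests over mice, 5 against 5, cannot give a p below 0.00794.

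Macrophage-like cells showed the clearest changes, in the NKG2D ligand Ulbp1 and in Clec2d. Ulbp1 measured 10.3, 12.7, 13, 13.3 and 15.4 CPM in the 5 PBS mice, 2.92, 4.82, 5.74, 6.31 and 6.47 CPM in the mono-IL10 mice and 3.96, 4.97, 8.13, 8.38 and 8.76 CPM in the IL10/2-Trikine mice. Every treated mouse was below every PBS mouse. The log2 change was -1.16 ± 0.17 (SE) for mono-IL10 against PBS, a fold of 0.446, with an adjusted p of 5.10e-05, and -0.80 ± 0.20 for IL10/2-Trikine against PBS, with an adjusted p of 0.00800 (edgeR). The treated groups overlapped each other, and their difference of 0.37 ± 0.22 was not called (adjusted p = 0.311). The IL10/2-Trikine change was no longer called in cells with at least 2000 detected genes (-0.18) or after each mouse was thinned to the lowest total (-0.79). The mono-IL10 change kept its call under each of the 10 alternatives that tested it. Median UMIs per macrophage-like cell averaged 5043 over PBS mice, 6174.5 under mono-IL10 and 2688 under IL10/2-Trikine, and the part of depth was not tested.

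Clec2d, the ligand of the inhibitory NKR-P1B, moved the other way. It measured 69.1, 72.1, 74.1, 74.4 and 92.5 CPM in macrophage-like cells of PBS mice, 118, 126, 129, 146 and 172 CPM under mono-IL10 and 82.0, 91.3, 103, 106 and 134 CPM under IL10/2-Trikine. The mono-IL10 mice lay above all PBS mice, and the IL10/2-Trikine mice lay between, overlapping both groups. Clec2d rose by 0.94 ± 0.11 under mono-IL10 (fold 1.92, adjusted p = 3.29e-06) and by 0.40 ± 0.12 under IL10/2-Trikine (adjusted p = 0.0234) against PBS, and it was lower under IL10/2-Trikine than under mono-IL10, at -0.55 ± 0.12 (adjusted p = 0.00417). The rise under IL10/2-Trikine was 0.08 and lost its call in cells with at least 2000 genes, and it lost it without PBS mouse 1 or IL10/2-Trikine mouse 2, 3 or 5, at 0.33 to 0.38.

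**Figure D2:**
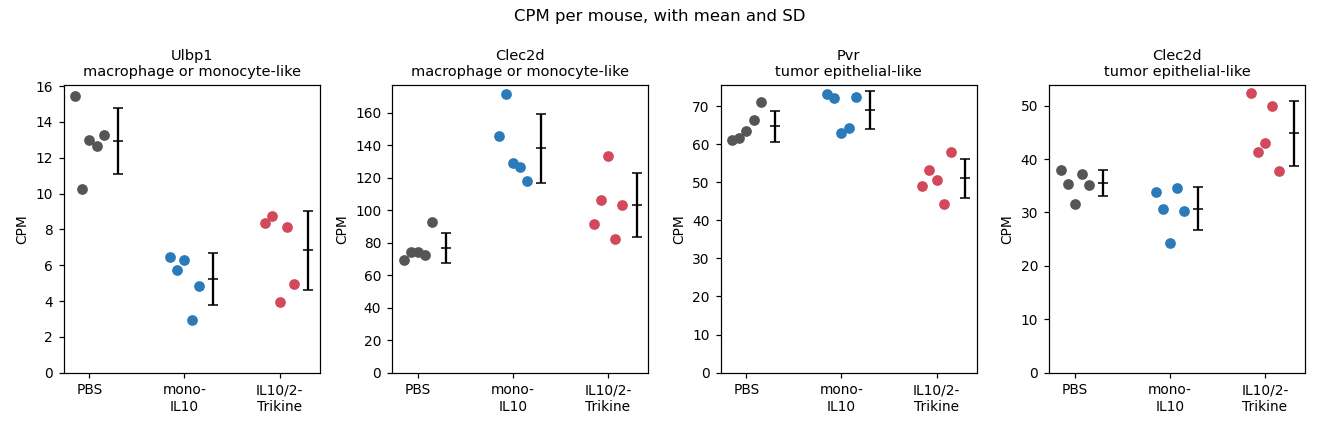
Ulbp1 and Clec2d in macrophage or monocyte-like cells, and Pvr and Clec2d in tumor epithelial-like cells, in CPM with 1 point per mouse for PBS, mono-IL10 and IL10/2-Trikine, and the mean and SD of each group beside its points. All 10 treated mice have less Ulbp1 than the 5 PBS mice in macrophage-like cells, and the 5 IL10/2-Trikine mice have the least Pvr in tumor epithelial-like cells.

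The DNAM-1 and TIGIT ligands Pvr and Nectin2 were also called in macrophage-like cells. Pvr measured 61.1, 63.8, 64.5, 65.3 and 67.1 CPM in PBS mice, 67.7, 68.6, 76.6, 79.1 and 88.7 CPM under mono-IL10 and 46.5, 55.1, 58.7, 65.1 and 70.1 CPM under IL10/2-Trikine. The mono-IL10 mice lay above all PBS mice, with a log2 change of 0.33 ± 0.086 (adjusted p = 0.00759), and IL10/2-Trikine was lower than mono-IL10 at -0.44 ± 0.096 (adjusted p = 0.00530), with 1 mouse overlapping. Both calls were lost after each mouse was thinned to the lowest total (0.31 and -0.47) and in cells with at most 1 UMI of other lineages (0.25 and -0.34). Nectin2 rose from 3.43, 3.76, 3.94, 4.06 and 4.10 CPM in PBS mice to 4.06, 5.59, 6.14, 8.90 and 9.38 CPM under IL10/2-Trikine, at 0.69 ± 0.22 (adjusted p = 0.0359), and 4 of the 5 treated mice were above all PBS mice. The call was lost without PBS mouse 1, 2 or 5 or IL10/2-Trikine mouse 2, 3 or 4, at 0.57 to 0.70. Marker genes of tumor epithelial cells, in which Nectin2 is high, summed to 30.7 to 73.8 CPM in the macrophage-like cells of PBS mice, 31.0 to 77.2 CPM under mono-IL10 and 74.2 to 230 CPM under IL10/2-Trikine, with Epcam, 1 of these markers, under 1 CPM in PBS and mono-IL10 mice only. The part of these markers in the Nectin2 result was not tested. In cells with at most 1 UMI of other lineages the Nectin2 change was 0.78 and not called (adjusted p = 0.0505, edgeR). It also lost its call without the filter on low counts (0.66), with 40 clusters (0.51) and with the hashtag quantile at 0.95 (0.60). Within the 10 macrophage clusters Nectin2 rested on 0 to 19 UMIs per cluster under IL10/2-Trikine, too few to give a direction: it was higher than under PBS in 8 by mean CPM and in 5 by mean log2(CPM + 1).

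Raet1e was lower under IL10/2-Trikine than under mono-IL10 in macrophage-like cells, at 5.73 ± 2.17 against 7.46 ± 0.819 CPM and a log2 change of -0.58 ± 0.18 (adjusted p = 0.0406). The groups overlapped, the exact permutation p was 0.127, and the call was lost in 7 of the 9 alternatives that tested it and, at -0.59 to -0.44, without PBS mouse 3, mono-IL10 mouse 1, 2 or 3 or IL10/2-Trikine mouse 1, 2 or 4. Cd48 and H2-T23 were called by edgeR in none of the 3 comparisons. Cd48 measured 93.0 ± 8.10 CPM in PBS mice, 81.0 ± 2.25 under mono-IL10 and 82.0 ± 15.5 under IL10/2-Trikine, and H2-T23 171 ± 36.3, 165 ± 34.5 and 190 ± 24.9 CPM. For Cd48 under mono-IL10 against PBS the log2 change was -0.11 ± 0.085 (adjusted p = 0.364, edgeR), with 4 of 5 mice below all PBS mice and an exact permutation p of 0.0159. All 7 members were tested in macrophage-like cells, and 3 of 7 were called for mono-IL10 against PBS, where 26.1% of all 12028 genes tested were. The call covered 3 of 7 for IL10/2-Trikine against PBS, beside 19.0% of all genes, and 3 of 7 for IL10/2-Trikine against mono-IL10, beside 12.9%. The median log2 change of the 7 members was 0.11, -0.11 and -0.03 in these comparisons, and that of all genes between -0.01 and 0.01.

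The macrophage-like class was made up of different clusters in the 3 libraries, so the same comparisons were made inside each of its 10 clusters. In PBS mice the largest share, 19.6%, was in a cluster led by St18, Il10 and Blnk (cluster 58), under mono-IL10 26.6% was in one led by Cd163, Ppbp and Nrg1 (cluster 24), and under IL10/2-Trikine 37.8% was in one led by Pf4 and F13a1 (cluster 46). Ulbp1 was lower under mono-IL10 than under PBS in 10 of 10 clusters, with a median difference of -1.13 between group means of log2(CPM + 1), and lower under IL10/2-Trikine in 9 of 10. The latter rest on 3 to 29 UMIs per cluster, with mice at 0, and the gap in mean CPM was small in some clusters, at 14.2 against 15.5 CPM in cluster 58 and 16.0 against 16.5 CPM in cluster 50. Clec2d was higher under mono-IL10 than under PBS in 10 of 10 clusters, by a median of 0.78, and lower under IL10/2-Trikine than under mono-IL10 in 10 of 10, by a median of -0.43. Cd48, not called, was lower under mono-IL10 than under PBS in 10 of 10 clusters, by a median of -0.19. The higher Pvr under mono-IL10 held in 7 of 10 clusters with a median of 0.16. These clusters share mice and were given no test.

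**Figure D3:**
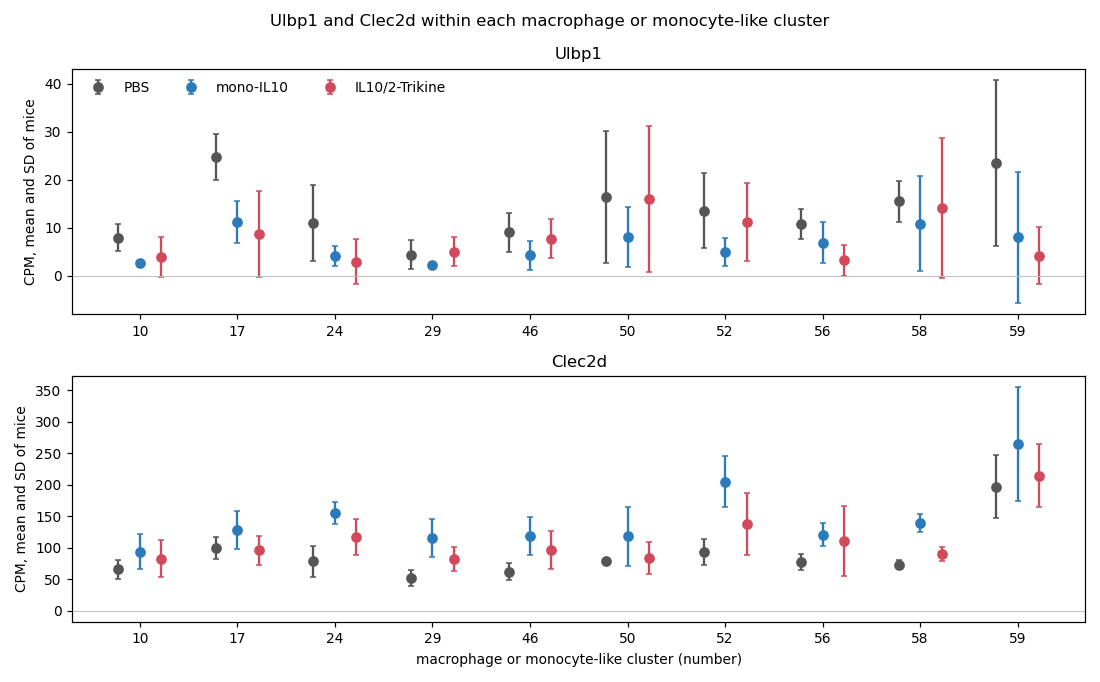
Ulbp1 (top) and Clec2d (bottom) in each of the 10 macrophage or monocyte-like clusters, in CPM, as the mean of the mice with bars of 1 SD, for PBS, mono-IL10 and IL10/2-Trikine. In all 10 clusters the mono-IL10 mean lies below the PBS mean for Ulbp1 and above it for Clec2d, and Clec2d is highest in cluster 59.

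One macrophage cluster, number 59, of 307 cells with or without a hashtag, was led by the interferon-stimulated genes Rsad2, Ifit2, Ifit1, Ifit3 and Mx1. Clec2d and H2-T23 had the highest mean of the class there in each of the 3 groups. Pooled over the groups, Clec2d measured 256 CPM there (exact Poisson 95% interval 233 to 281, which covers counting error only), against 73.3 to 166 CPM in the other macrophage clusters. H2-T23 measured 514 CPM (481 to 548), against 127 to 253 CPM. Nectin2 and Raet1e, with 18 and 26 UMIs there, did not keep the same order of clusters from group to group. The cluster held 1.29% of the macrophage-like cells of PBS mice, 1.36% under mono-IL10 and 2.41% under IL10/2-Trikine.

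Tumor epithelial-like cells showed lower Pvr and Nectin2 and higher Clec2d under IL10/2-Trikine. Pvr measured 61.1, 61.7, 63.4, 66.4 and 71.0 CPM in PBS mice, 62.8, 64.2, 72.1, 72.5 and 73.2 CPM under mono-IL10 and 44.2, 49.0, 50.6, 53.3 and 58.1 CPM under IL10/2-Trikine. The IL10/2-Trikine mice lay below all others, with log2 changes of -0.32 ± 0.070 against PBS (adjusted p = 0.00415) and -0.53 ± 0.070 against mono-IL10 (adjusted p = 4.61e-05). The 6 tumor clusters all had less Pvr under IL10/2-Trikine than in either other group. Nectin2 measured 33.3, 35.4, 36.5, 40.5 and 42 CPM in PBS mice, 30, 31.6, 35.9, 36.6 and 36.9 CPM under mono-IL10 and 28.4, 29.8, 30.8, 31.2 and 35.1 CPM under IL10/2-Trikine. It fell against PBS by 0.25 ± 0.076 (adjusted p = 0.0247) and against mono-IL10 by 0.23 ± 0.076 (adjusted p = 0.0252). One IL10/2-Trikine mouse overlapped the PBS mice, the permutation p against mono-IL10 was 0.0952, and both calls were lost when single mice were left out. The change against PBS was -0.25 to -0.20 without PBS mouse 1, 2 or 4 or IL10/2-Trikine mouse 1, 2 or 3, and that against mono-IL10 was -0.22 to -0.19 without mono-IL10 mouse 2, 3 or 4 or IL10/2-Trikine mouse 1, 2 or 3.

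Clec2d rose in tumor epithelial-like cells under IL10/2-Trikine. Its 5 values were 31.6, 35.1, 35.3, 37.1 and 38.0 CPM in PBS mice, 24.3, 30.2, 30.7, 33.8 and 34.6 CPM under mono-IL10 and 37.8, 41.2, 42.9, 49.9 and 52.4 CPM under IL10/2-Trikine. IL10/2-Trikine was above every mono-IL10 mouse and overlapped PBS by 1 mouse, with log2 changes of 0.45 ± 0.091 (adjusted p = 0.00129) and 0.36 ± 0.090 (adjusted p = 0.00992). Marker genes of macrophages, where Clec2d is higher, summed to 116 to 237 CPM in tumor epithelial-like cells of PBS mice, 54.5 to 122 CPM under mono-IL10 and 120 to 627 CPM under IL10/2-Trikine. NK cell markers summed to 2.05 to 3.44, 1.67 to 2.93 and 4.40 to 18.8 CPM. Among cells with at most 1 UMI of other lineages the Clec2d change against PBS was -0.22 and that against mono-IL10 1.21. The markers counted included Sdc1, of the plasma cell list, which summed to 150 to 179 CPM in tumor epithelial-like cells of PBS mice. Jchain, Mzb1 and Derl3, the rest of that list, were each under 1 CPM. The limit thus also drops cells by their own Sdc1 and by depth, and cannot single out RNA from other cells. That setting kept few cells, so that 7766 rather than 15315 genes could be tested, and Pvr and Nectin2 changed there by -0.08 and -0.05 against PBS and by -0.31 and -0.27 against mono-IL10, none of them called. The markers of tumor epithelial cells themselves summed to 4292 to 5664 CPM in this class in PBS mice, 4849 to 5550 CPM under mono-IL10 and 3822 to 4220 CPM under IL10/2-Trikine, below all other mice, and their part in the Pvr, Nectin2 and Clec2d results was not tested. Depth also differed between the libraries, with the median UMIs per tumor epithelial-like cell averaging 25096 over PBS mice, 35539 under mono-IL10 and 9992 under IL10/2-Trikine. After each mouse was thinned to the lowest total, Pvr and Clec2d kept their calls against both groups and Nectin2 against PBS, while Nectin2 (-0.21) lost its call against mono-IL10, as it did without TMM (-0.14), with 40 clusters (-0.20) and without tumor cluster 37 (-0.18).

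Ulbp1 in tumor epithelial-like cells was 9.67 ± 0.940 CPM in PBS mice, 8.01 ± 0.999 under mono-IL10 and 10.1 ± 0.744 under IL10/2-Trikine. It was called between the treated groups at 0.24 ± 0.089 (adjusted p = 0.0449), which lost its call without PBS mouse 2, mono-IL10 mouse 2, 3, 4 or 5 or IL10/2-Trikine mouse 2, 3 or 4, at 0.18 to 0.25. It also lost it after thinning (0.21), without the filter on low counts (0.25), with 40 clusters (0.24), with the hashtag quantile at 0.95 (0.21) and without tumor cluster 37 (0.22). Its level differed more between tumor clusters than between treatments, at 15.2 CPM (14.7 to 15.7) in the cluster led by the mitotic genes Ube2c, Cenpf and Ccna2 and 4.24 to 10.1 CPM in the other 5. Cd48 was called for IL10/2-Trikine against mono-IL10, at 1.44 ± 0.40 (adjusted p = 0.00969), with 2.53, 2.73, 2.84, 2.84 and 10.3 CPM against 0.626, 1.10, 1.15, 1.72 and 2.47 CPM. In tumor cluster 37 it reached 18.3 CPM, against 0.546 to 0.923 CPM in the other 5. Markers of another lineage scored up to 0.0938 there (median level relative to the highest cluster), against 0.0032 to 0.0295 in those 5. Without cluster 37 the Cd48 change was 0.96 and not called. Without IL10/2-Trikine mouse 1, at 10.3 CPM, it was 0.89 and still called (adjusted p = 0.0154, edgeR). Marker genes of macrophages, where Cd48 is higher, summed to 54.5 to 122 CPM in these cells under mono-IL10 and 120 to 627 CPM under IL10/2-Trikine. Their part in the Cd48 result was not tested.

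Raet1e, at 23.4 ± 1.35, 22.5 ± 1.90 and 22.3 ± 1.98 CPM, and H2-T23, at 104 ± 15, 121 ± 26.8 and 128 ± 10.7 CPM in PBS, mono-IL10 and IL10/2-Trikine mice, were not called by edgeR in tumor epithelial-like cells. For H2-T23 under IL10/2-Trikine against PBS the change was 0.31 ± 0.12 with an adjusted p of 0.0822, and the exact permutation p was 0.0317. All 7 members were tested there. IL10/2-Trikine against PBS called 3 of 7, beside 22.1% of 15315 genes, and against mono-IL10 5 of 7, beside 36.8%. None of the 7 was called by edgeR for mono-IL10 against PBS, beside 9.62% of genes. At an unadjusted p under 0.05, 3 of the 7 members and 3911 genes passed in that comparison, and DESeq2 called 1 member. Over all genes the alternatives, with DESeq2 among them, called 17 to 3611 there.

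**Figure D4:**
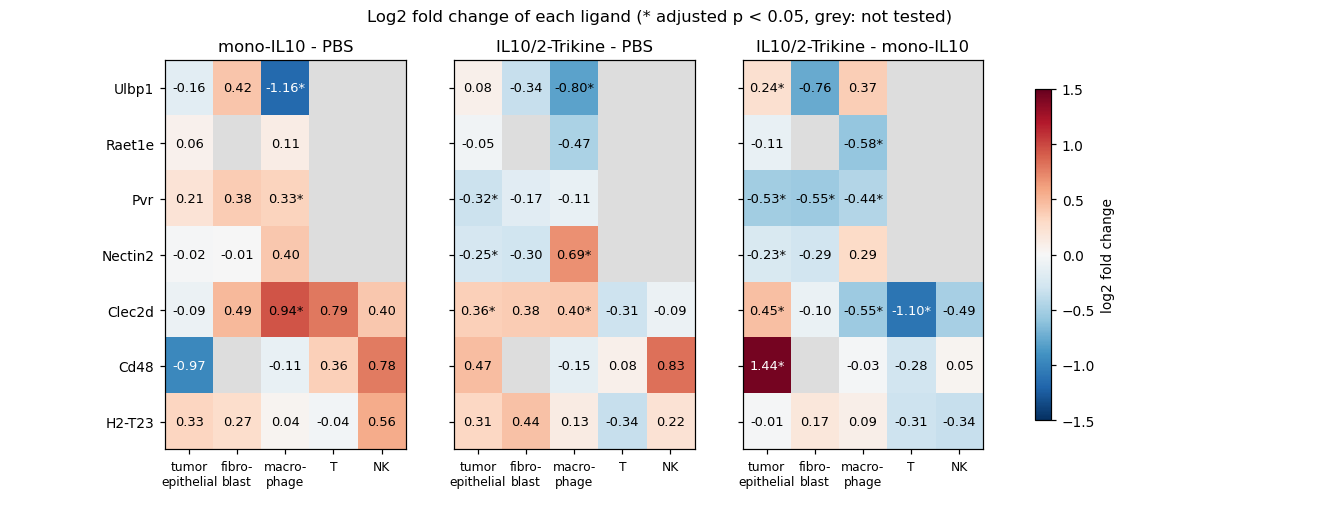
Log2 fold change from edgeR's quasi-likelihood fit for each of the 7 genes (rows) in 5 cell classes (columns) and 3 comparisons (panels), as color and number, with called changes starred and genes not tested in grey. In macrophage-like cells under mono-IL10, Ulbp1 changes by -1.16 and Clec2d by 0.94.

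Fibroblast-like cells gave 5 of the 7 members enough counts for the test. Raet1e, with 8, 8 and 11 UMIs in the 3 groups, and Cd48, with 17, 23 and 29, did not pass the filter on low counts. Pvr measured 49.4, 52.2, 59.6, 62.7 and 74.8 CPM in PBS mice, 65.2, 70.8, 77.5, 80.6 and 82.3 CPM under mono-IL10 and 51.3, 52.1, 53.1, 54.2 and 65.0 CPM under IL10/2-Trikine. All IL10/2-Trikine mice were below the mono-IL10 mice, at -0.55 ± 0.13 (adjusted p = 0.0217), which lost its call with TMM left out (-0.44) and without mono-IL10 mouse 4 or IL10/2-Trikine mouse 1 or 4 (-0.51, -0.51 and -0.52). It was the 1 of 5 members called in that comparison, beside 4.37% of 8332 genes.

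No member was called by edgeR in fibroblast-like cells against PBS, beside 1.01% of genes for IL10/2-Trikine and 0.336% for mono-IL10, while 2 and 3 of the 5 passed at an unadjusted p under 0.05, beside 1162 and 822 of the 8332 genes. H2-T23 measured 73.0, 83.7, 96.0, 112 and 115 CPM in PBS mice and 124, 132, 133, 135 and 141 CPM under IL10/2-Trikine. These groups did not overlap and the exact permutation p was 0.00794, while the edgeR change of 0.44 ± 0.13 had an adjusted p of 0.104, and DESeq2 called it. Clec2d had means of 97.8 ± 12 CPM in PBS mice, 133 ± 23.6 under mono-IL10 and 131 ± 27.8 under IL10/2-Trikine, with log2 changes of 0.49 and 0.38 against PBS that missed the threshold (adjusted p = 0.144 and 0.226). Ulbp1 ranged from 8.78 to 33.9 CPM over all mice and Nectin2 had means of 28.0, 25.3 and 22.9 CPM, with no call for either. Tumor epithelial markers in these cells summed to 27.8 to 195 CPM in PBS mice, 5.77 to 21.9 CPM under mono-IL10 and 140 to 251 CPM under IL10/2-Trikine, and their part was not tested.

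Among lymphocytes only Clec2d, Cd48 and H2-T23 had enough counts to be tested. Clec2d in T cells measured 74.5, 117, 123, 132 and 167 CPM in PBS mice, 175, 176, 210, 219 and 227 CPM under mono-IL10 and 0, 66.2, 68.2, 139 and 189 CPM under IL10/2-Trikine. The mono-IL10 mice lay above all PBS mice, with a log2 change of 0.79 ± 0.24 that missed the threshold (adjusted p = 0.0850, exact permutation p = 0.00794). IL10/2-Trikine was lower than mono-IL10 at -1.10 ± 0.28 (adjusted p = 0.00992), with 1 mouse overlapping. Without IL10/2-Trikine mouse 2 it was -0.88, and without cycling clusters -0.83, and neither was called. The clusters annotated as cycling held 22.1% of T cells in PBS mice, 23.5% under mono-IL10 and 58.0% under IL10/2-Trikine. Markers of NK cells summed to 135 to 350, 116 to 213 and 449 to 718 CPM in the T cells of these groups. T cell markers themselves summed to 2339 to 2967 CPM in PBS mice, 3364 to 3776 CPM under mono-IL10 and 1524 to 2076 CPM under IL10/2-Trikine, with no overlap between the groups. The part of either marker list in the Clec2d result was not tested.

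Cd48 in T cells was 129 ± 19.8 CPM in PBS mice, 156 ± 36.0 under mono-IL10 and 136 ± 19.7 under IL10/2-Trikine, and H2-T23 was 300 ± 42.4, 277 ± 33.1 and 229 ± 35.7 CPM, with no call in any comparison. In T cells, 0 of 3 members tested were called for either treatment against PBS, beside 8.97% of 3189 genes for IL10/2-Trikine and 1.72% for mono-IL10, and 1 of 3 between the treatments, beside 12.3%. At an unadjusted p under 0.05, 1 and 2 of the 3 passed against PBS, beside 739 and 482 of the 3189 genes, and DESeq2 called 0. Over all genes the alternatives, with DESeq2 among them, called 56 to 436 and 18 to 135 there. NK cells gave no member call. Their Clec2d means were 100 ± 24.2, 126 ± 59.4 and 101 ± 53.3 CPM, Cd48 57.9 ± 59.8, 109 ± 16.8 and 115 ± 14.9 CPM and H2-T23 197 ± 72.7, 297 ± 15.3 and 254 ± 84.9 CPM. In NK cells 4.42% of 2355 genes were called for IL10/2-Trikine against PBS, 2.38% between the treatments and 0.297% for mono-IL10 against PBS. At an unadjusted p under 0.05, 1 of the 3 members passed for IL10/2-Trikine against PBS, 0 between the treatments and 2 for mono-IL10 against PBS. Of the 2355 genes 421, 379 and 273 passed. DESeq2 called 0 members in each. Over all genes the alternatives, with DESeq2 among them, called 41 to 436, 7 to 406 and 2 to 51.

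Among the annotated T and NK subsets, Ulbp1 was highest in cycling T cells in each group, at 73.0 CPM in PBS mice, 49.1 CPM under mono-IL10 and 53.2 CPM under IL10/2-Trikine. The highest level of another subset of at least 20 cells was 23.3 CPM, 4.48 CPM and, in cycling NK cells, 49.7 CPM. Pooled over the groups, which differ in their share of cycling cells, it measured 54.5 CPM (44.1 to 66.6, 95 UMIs in 349 cells) in cycling T cells and 55.3 CPM (32.8 to 87.4, 18 UMIs) in cycling NK cells, against 10.3 CPM (7.02 to 14.7) in the other NK cells, 5.63 CPM (1.53 to 14.4) in activated CD4+ T cells and 3.02 CPM (0.365 to 10.9) in naive CD8+ T cells. Cycling regulatory T cells had 28.7 CPM (10.5 to 62.4) from 6 UMIs, which overlapped both, as did subsets of 25 and 21 cells with 1 and 0 UMIs. In the T cells of single mice Ulbp1 ranged from 18.5 to 49.6 CPM under PBS, 7.02 to 35.6 CPM under mono-IL10 and 29.2 to 64.1 CPM under IL10/2-Trikine, from 25, 40 and 21 UMIs, too few for the test, and the part of the larger share of cycling cells in the last group was not tested. Outside the annotation, 140 cells of an NK cluster named from markers (cluster 33) had 32.5 CPM of Ulbp1 (20.4 to 49.3), pooled over the groups. In 143 such cells of cluster 9 it was 11.1 CPM (5.34 to 20.5). The subset and cluster values also count cells with no hashtag. The intervals cover counting error only, and the subsets were defined on expression, so no test was made. Clec2d and H2-T23 were both highest among the annotated lymphocyte subsets of at least 20 cells in regulatory T cells in each group. Clec2d measured 388, 548 and 331 CPM there in PBS, mono-IL10 and IL10/2-Trikine mice, against at most 173, 271 and 188 CPM in another subset. H2-T23 measured 497, 644 and 414 CPM, against at most 312, 318 and 293 CPM. Nectin2 reached 199 CPM (175 to 225) in a cluster of 83 endothelial-like cells, above its 29.2 to 55.2 CPM in the tumor clusters.

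Whether a gene changed differently in different classes was tested over pairs of classes. For mono-IL10 against PBS, the log2 change of Clec2d in macrophage-like cells exceeded that in tumor epithelial-like cells by 1.05, and that of Ulbp1 was lower by -0.94. For IL10/2-Trikine against mono-IL10, Clec2d was lower in macrophage-like and higher in tumor epithelial-like cells, with a difference of -0.95. For IL10/2-Trikine against PBS, Nectin2 was higher in macrophage-like and lower in tumor epithelial-like cells, with a difference of 0.90. Each of these had the smallest exact permutation p possible, 0.00794, in a family of 51 differences over members, pairs of classes and comparisons, of which 8 reached it. The adjusted p was 0.0506 for all 8, so none passed the correction.

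Other ligands of NK cell receptors and the receptors themselves were followed on lists of 37 and 18 genes. Of the 9 NKG2D ligands listed, members included, 5 were in the matrices. In macrophage-like cells 25 of the other ligands were tested, and 2 rose and 5 fell under mono-IL10 against PBS, beside the 26.1% called over all genes. Among them Ly9, a SLAM family member like Cd48, fell from 28.2 ± 4.47 to 5.00 ± 1.07 CPM (-2.36 ± 0.17, adjusted p = 1.04e-08), and Cadm1, a ligand of CRTAM, fell from 38.6 ± 21.6 to 15.9 ± 5.87 CPM (-1.25 ± 0.31, adjusted p = 0.00478). Under IL10/2-Trikine 3 rose and 4 fell against PBS, beside 19.0%, with Ly9 at -1.24 ± 0.18 (adjusted p = 8.62e-05). Mature dendritic cell markers summed in these cells to 20.7 to 70.7 CPM in PBS mice, 7.38 to 16.8 under mono-IL10 and 10.8 to 26.5 under IL10/2-Trikine. Conventional dendritic cell markers summed to 8.36 to 17.2, 4.91 to 12.1 and 4.38 to 21.8 CPM. The part of these markers in the Ly9 and Cadm1 results was not tested. Cd244a, which encodes the CD48 receptor 2B4, rose in macrophage-like cells from 18.3 ± 2.49 to 35.8 ± 5.96 CPM under mono-IL10 (1.05 ± 0.11, adjusted p = 8.56e-07). It was the 1 of 11 receptors tested that rose there, while Crtam, Itgal, Klrb1c and Klrk1 fell, again beside 26.1%. Klrk1, which encodes NKG2D, fell from 12.7 ± 3.93 to 5.02 ± 2.33 CPM (-1.16 ± 0.25, adjusted p = 0.00170). Under IL10/2-Trikine 5 of the 11 receptors rose and 2 fell against PBS, beside 19.0% of genes called, and 5 rose and 0 fell against mono-IL10, beside 12.9%. NK cell markers, which include Klrb1c, summed in macrophage-like cells to 2.43 to 7.17 CPM in PBS mice, 0.921 to 3.49 CPM under mono-IL10 and 8.47 to 15.1 CPM under IL10/2-Trikine, and their part in these receptor results was not tested. In tumor epithelial-like cells 2 of 25 other ligands rose and 0 fell for IL10/2-Trikine against PBS, beside 22.1%, and 5 rose and 2 fell against mono-IL10, beside 36.8%. In fibroblast-like cells 0 of 16 were called against PBS, beside 1.01% of all genes for IL10/2-Trikine and 0.336% for mono-IL10. Cdh1, the E-cadherin gene and a KLRG1 ligand, was the 1 called between the treatments, beside 4.37% of all genes. It changed by 3.31 ± 0.53 (adjusted p = 0.00164, edgeR), beside the tumor epithelial markers given above.

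The listed receptors, not all of them receptors of the members, were read in NK cells, where 14 of 18 were tested. Klrb1b, which encodes the Clec2d receptor NKR-P1B, fell from 332 ± 81.0 CPM in PBS mice to 163 ± 51.5 CPM under IL10/2-Trikine (-0.93 ± 0.23, adjusted p = 0.0176). Klrd1, the CD94 chain of the H2-T23 receptor, rose from 733 ± 97.8 to 1097 ± 184 CPM (0.57 ± 0.16, adjusted p = 0.0379), and Klrb1c, encoding NK1.1, rose from 205 ± 58.8 to 385 ± 45.7 CPM (0.81 ± 0.19, adjusted p = 0.0130). These were the 3 of 14 called against PBS, beside 4.42% of all genes. Cycling cells made up 3.03% of NK cells in PBS mice, 4.76% under mono-IL10 and 13.7% under IL10/2-Trikine, and their part was not tested. For mono-IL10 against PBS edgeR called 0 of 14, beside 0.297% of all genes. Between the treatments it called 1, Klrb1c, beside 2.38% of all genes, so neither Klrb1b nor Klrd1 was called there. Of the receptors, 8 of 15 tested in tumor epithelial-like cells rose under IL10/2-Trikine against PBS, beside 22.1% of all genes, with Klrb1c at 2.01 ± 1.90 against 0.202 ± 0.203 CPM, beside the higher NK cell markers given above. In T cells Klrb1c, Klrd1 and Ncr1, 3 of 11 tested, rose against PBS, beside 8.97%, again beside higher NK cell markers. Klrb1c and Ncr1 are themselves on that marker list, so the marker sums are not independent of them. B2m, the light chain shared by MHC class I molecules including Qa-1, fell in NK cells under IL10/2-Trikine against PBS by 0.36 ± 0.082 (adjusted p = 0.0113) and in T cells by 0.45 ± 0.071 (adjusted p = 0.000193). In T cells this stood beside the lower T cell markers, higher NK cell markers and larger cycling share given above, whose part was not tested.

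Over the 15 means of 5 classes by 3 groups and 2108 genes tested in every class, the genes whose log2 levels followed Clec2d most closely were Ypel3 (Pearson r = 0.946), Eif4g3 (0.879) and Nsd1 (0.876). For H2-T23 they were Stk4 (0.976), Ccl5 (0.956) and Ranbp9 (0.954). The 15 means share libraries and mice, and the values are descriptions.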

How the data were processed

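Gene expression and hashtag libraries of 3 groups (PBS, mono-IL10, IL10/2-Trikine) were used. The authors aligned reads to GRCm39 with Cell Ranger and deposited filtered matrices of UMI counts per gene and barcode, and their processing notes list Seurat 5.1.0 and DESeq2 1.46.0. A deposited annotation named T and NK cells, and 7858 cells in it with no sample here were not used. The 7 genes and all lists were chosen with earlier results of these data known.

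Cells had to show 1000 detected genes or more, with mitochondrial UMIs not above 10%. Hashtags were called with Seurat 5.3.0 (HTODemux, quantile 0.99). Cells with several hashtags (8.64 to 13.3%) were left out before clustering. Cells with no hashtag (17.3 to 30.2%) were clustered and left out of the sums per mouse. They do count in values given for a whole cluster or annotated subset. No expression-based doublet caller was run, so doublets within a mouse remain. All cells but those with several hashtags were grouped into 60 clusters over 40 components and named from marker genes. Of these cells 21.4 to 29.8% stayed unnamed. A rule that leaves a non-lymphoid cluster unnamed when T-cell genes lead it was added after the clusters had been inspected. Counts were summed per mouse and class (at least 10 cells) and tested with edgeR 4.0.16 (quasi-likelihood, TMM, filterByExpr) in R 4.3.3, and the script was tested on simulated data. The genes named were the 7 members, up to 6 called list genes per class and comparison by size of change, and the 3 genes most like each member that passed the filter in all 5 classes. DESeq2 1.42.0, thinning, other filters and clusterings, and leaving out each mouse were alternatives. With a single library per treatment, p-values measure the spread between mice of that library.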

Additional observations from a re-analysis of the deposited data

Results flagged for a closer look

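In 5 of the 75 groups of 4 or 5 mice examined, 1 mouse stood apart from the others of its group by Dixon's test, and chance alone gives about 1 in 20 groups. Cd48 in tumor epithelial-like cells was 10.3 CPM in IL10/2-Trikine mouse 1, with the next mouse at 2.84 CPM. Ulbp1 in fibroblast-like cells was 33.9 CPM in mono-IL10 mouse 5, with the next at 18.2 CPM. Pvr in fibroblast-like cells was 65.0 CPM in IL10/2-Trikine mouse 3, with the next at 54.2 CPM. In macrophage-like cells of PBS mice, Clec2d was 92.5 CPM in mouse 5, with the next at 74.4 CPM, and H2-T23 was 234.9 CPM in mouse 4, with the next at 161 CPM.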

How the results depend on the processing

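Counts are of members called. The number of all genes called also differed widely between settings, with ranges given below, so a changed count need not be particular to the members. In tumor epithelial-like cells IL10/2-Trikine against PBS (3) gave 0 with at most 1 UMI of other lineages per cell, where Clec2d reversed to -0.22. IL10/2-Trikine against mono-IL10 (5) gave 3 after thinning, 3 with 40 clusters, 1 with at most 1 UMI of other lineages, where Cd48 and Ulbp1 were not tested, and 2 without cluster 37 (chosen after seeing the data). Mono-IL10 against PBS (0) gave 1 with DESeq2, 1 without TMM, 1 after thinning and 1 with at most 1 UMI of other lineages. In fibroblast-like cells IL10/2-Trikine against PBS (0) gave 1 with DESeq2, and against mono-IL10 (1) gave 0 without TMM. In macrophage-like cells IL10/2-Trikine against PBS (3) gave 1 after thinning and 1 with at least 2000 genes, and against mono-IL10 (3) gave 1 after thinning, where Nectin2 and Raet1e were not tested, and 1 with at most 1 UMI of other lineages. Mono-IL10 against PBS (3) gave 2 in both of these settings, without Pvr. In T cells IL10/2-Trikine against mono-IL10 (1) gave 0 after thinning, where Clec2d was not tested, and 0 without cycling clusters, and mono-IL10 against PBS (0) gave 1 without a filter. In NK cells the 2 treatments (0) gave 1 with T and NK cells together. The cause was not tested. Leaving out each mouse in turn gave 2 to 4, 3 to 5 and 0 to 1 members for IL10/2-Trikine against PBS, IL10/2-Trikine against mono-IL10 and mono-IL10 against PBS in tumor epithelial-like cells, 0 to 0, 0 to 1 and 0 to 0 in fibroblast-like cells, 1 to 3, 2 to 3 and 3 to 4 in macrophage-like cells, 0 to 0, 0 to 1 and 0 to 1 in T cells and 0 to 1, 0 to 0 and 0 to 0 in NK cells. Over all genes the alternatives called 37 to 3592 (main 3389), 89 to 5935 (5629) and 17 to 3611 (1474) genes in tumor epithelial-like cells, 56 to 163 (84), 234 to 646 (364) and 7 to 157 (28) in fibroblast-like cells, 1040 to 2288 (2288), 498 to 2172 (1549) and 1110 to 3529 (3138) in macrophage-like cells, 56 to 436 (286), 82 to 492 (391) and 18 to 135 (55) in T cells and 41 to 436 (104), 7 to 406 (56) and 2 to 51 (7) in NK cells. With each mouse left out in turn, 2736 to 3420, 4916 to 5573 and 890 to 2013 genes were called in tumor epithelial-like cells. Fibroblast-like cells gave 28 to 108, 193 to 358 and 10 to 34, and macrophage-like cells 1888 to 2312, 1029 to 1609 and 2517 to 3219. T cells gave 151 to 304, 277 to 417 and 20 to 70, and NK cells 61 to 101, 9 to 72 and 3 to 13. The filter on UMIs of other lineages was not run in fibroblast-like cells, nor that on 2000 genes in T and NK cells, which had too few cells. The former also counted the plasma cell marker Sdc1. Plasma cell markers summed to 150 to 179 CPM in tumor epithelial-like cells and 61.1 to 94.4 CPM in macrophage-like cells of PBS mice. Jchain, Mzb1 and Derl3 were each under 1 CPM there, so that filter also drops cells by their own Sdc1 and by depth. No paired analysis was possible because mice of different groups share hashtag numbers only.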
